A study of Bos grunniens and Bos grunniens x Bos taurus with 2 samples.

Results

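The 43 genes described here carry a symbol that starts with TEX (testis expressed) or SPATA (spermatogenesis associated) followed by a digit, apart from *TEX12* and *TEX15*, which were not taken. The annotation used for the counts holds 26961 genes, of which 15722 have a symbol and 45 match the names, and the 43 members comprised 21 TEX and 22 SPATA genes. These names were given to genes found through their testis transcripts, so the members share no fold and no pathway. Some act at meiosis, when spermatocytes (SPC) pair and recombine their chromosomes. Others build the acrosome, the head or the tail of the spermatid (SPT), and several, such as *TEX264* and *SPATA2*, encode proteins that many tissues use. No coordinates or sequences of the members are given.

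The cells came from frozen testis that was thawed and digested with enzymes. The yak (*Bos grunniens*) and the cattle-yak (*Bos grunniens* x *Bos taurus*) each gave 1 droplet library of polyA RNA, and both are labelled as sampled past sexual maturity. The paper describes the yak library only, which came from 1 animal, and no treatment separates the groups. Male cattle-yaks are known to be sterile, with spermatogenesis that stops around meiosis. With 1 library per group no test between groups was possible, cells of 1 library are not replicates, and all intervals given are exact 95% intervals that cover counting error only. Although the labels call the material germ cells, named somatic classes held 7616 of the 11991 yak cells, without 341 more among the deepest cells. Germ-like or typed germ cells, the deepest included, numbered 1875, and no cluster was named for Sertoli or Leydig cells.

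The yak library held 60816600 unique molecular identifiers (UMIs, each 1 counted RNA molecule) and the cattle-yak library 43774841 UMIs in 8930 cells, with mitochondrial genes at 13.1% and 22.2% of UMIs. The libraries shared 24 barcodes, which were treated as different cells. Levels are given as CPM, the UMIs of a gene per 1e6 UMIs of a group of cells, and no gene is compared with another because the counts are not scaled to gene length. The 1127 germ cells typed by the study, with a median of 1074 UMIs, are called typed cells. Their types are spermatogonial stem cells (SSC), spermatogonia (SPG), SPC that the study split into early-SPC and late-SPC, and SPT. A further 407 germ-like yak cells, called deep cells, held 11740 to 170998 UMIs, lay above the upper limit on UMIs or genes, and were clustered on their own without any TEX or SPATA gene. Deep cells were not tested for doublets. The study used *TEX29*, *TEX35*, *SPATA19* and *SPATA16* among the markers of its SPT or SPC, so the stages of these 4 genes in typed cells are not independent of the typing. The paper states no exclusion of the other members from its clustering, so their typed stages may depend on it too.

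In the yak all 43 members had at least 1 UMI, and they took a larger share of UMIs at each later stage. Members made up 0.0634% of the UMIs of typed SSC, 0.0960% in SPG, 0.302% in early-SPC, 0.393% in late-SPC and 1.01% in SPT. The same share in deep cells was 0.113% in SPG-like, 0.221% in early-SPC-like, 0.498% in late-SPC-like and 1.87% in SPT-like cells, which were 148, 73, 115 and 71 cells. T/NK-like lymphocytes, the largest somatic class with 3692 cells, gave 0.0296%. Typed SSC also held genes of endothelial cells (EC), whose 12 measured markers summed to 2247 CPM there, 562 in typed SPG and 4274 in the EC-like class, and typed SPG held the 8 genes of the myoid cell (MC) list at 4601 CPM. Their part in the low member share of these types was not tested.

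**Figure D1:**
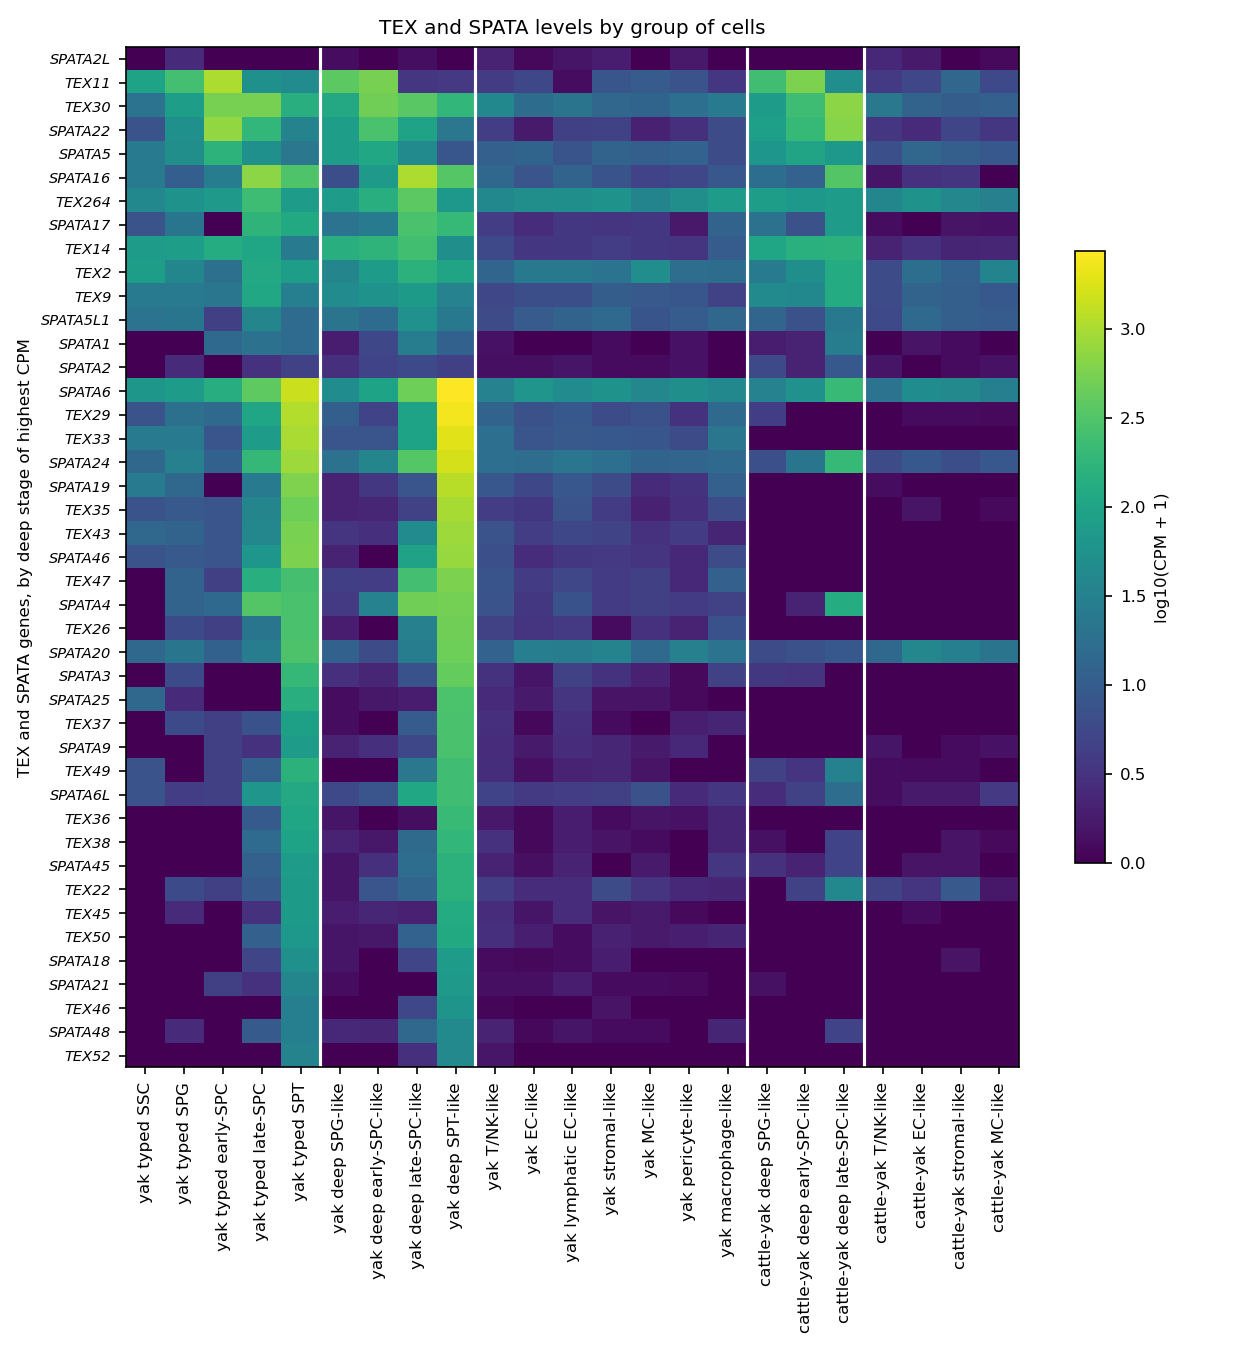
Level of each of the 43 genes (rows) in 16 groups of yak cells and 7 groups of cattle-yak cells (columns), as log10(CPM + 1), ordered by the deep stage with the highest level. Most rows are brightest in typed SPT and deep SPT-like cells, and a short upper set is brightest in spermatocytes. Within each somatic cattle-yak column most SPT rows are at 0, though not the same rows in every column.

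Among typed cells, 35 members had at least 20 UMIs, and 23 of them were highest in SPT. No member was highest in SSC (17.8% of all 8116 genes with 20 UMIs were) or in SPG (17.6%). Early-SPC was the highest stage of 5 members (23.7% of all genes), late-SPC of 7 (22.2%) and SPT of 23 (18.6%). The fold between the highest and the next stage excluded 1 for 3 of the 5, 3 of the 7 and all 23, comprising 13 TEX and 10 SPATA genes. No such count was made over all genes, so it sets the members apart from no other genes. The 8 members under 20 UMIs in typed cells were *SPATA1*, *SPATA2*, *SPATA2L*, *SPATA18*, *SPATA21*, *SPATA48*, *TEX46* and *TEX52*. A gene that reaches 20 UMIs through spermatids alone is bound to be highest there, so these counts describe the members that passed.

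In deep cells 42 members had 20 UMIs, and SPT-like cells were again the highest stage of most. No member was highest in SPG-like cells, against 33.2% of all 12738 genes with 20 UMIs. Early-SPC-like cells were highest for 4 members (20.2% of all genes), late-SPC-like cells for 9 (22.7%) and SPT-like cells for 29 (23.9%). The fold to the next stage excluded 1 for 4, 7 and 28 of these, again with no count over all genes. Of the 35 members counted in both sets, which are cells of the same library, 33 were highest in the same stage. SSC and SPG were both matched to SPG-like cells, and the agreement over all genes was not counted. The exceptions were *SPATA4*, highest in typed late-SPC and in deep SPT-like cells with neither fold excluding 1, and *TEX14*. Only *SPATA2L*, with 3 UMIs in deep cells, stayed under the limit.

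**Figure D2:**
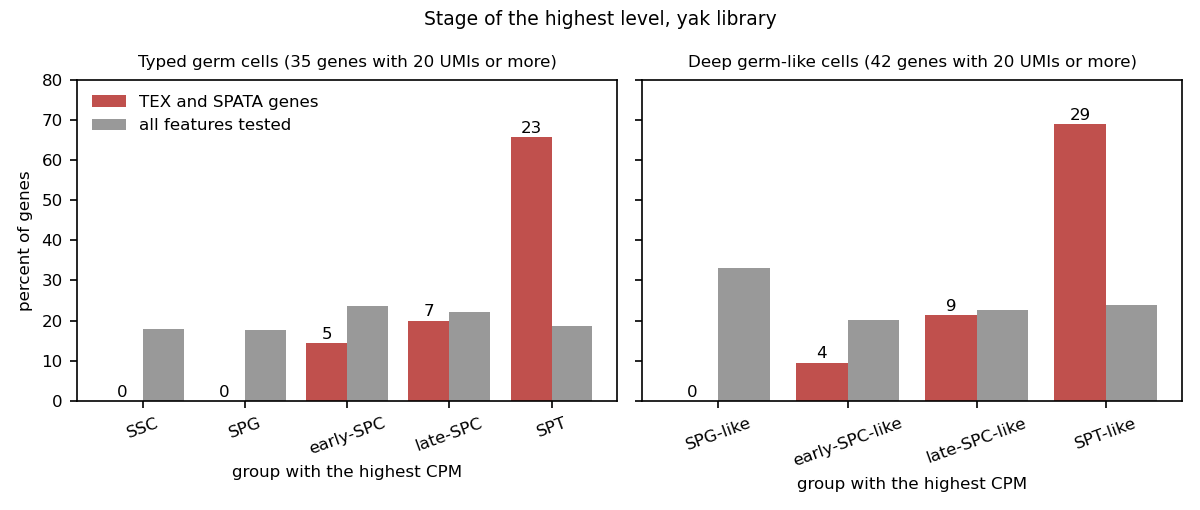
Percent of genes with at least 20 UMIs whose highest CPM fell in each stage, for the TEX and SPATA genes (red, with their number above each bar) and all genes tested (grey), in typed cells (left) and deep cells (right) of the yak. The red bars are at 0 in spermatogonia and pass the grey bars only in spermatids, with 23 of 35 and 29 of 42 genes.

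The 3 members with known roles at meiosis or in early germ cells left their maximum before the spermatid. *TEX11*, an X-linked gene needed for chromosome synapsis and crossover formation, stood at 98.0 CPM in typed SSC, 260 in SPG, 1029 in early-SPC, 52.5 in late-SPC and 44.2 in SPT. Its level in early-SPC was 3.95-fold (3.25 to 4.82) that in SPG. In deep cells *TEX11* was at 375 CPM in SPG-like and 545 in early-SPC-like cells, and at 2.52 and 2.67 CPM in late-SPC-like and SPT-like cells, below the 3.09 CPM of T/NK-like cells. The transcript was thus already high in spermatogonia, and its deep level past early-SPC did not exceed that in lymphocytes.

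*SPATA22*, a partner of MEIOB in recombination, was also highest in early-SPC. Its typed levels were 6.53 CPM in SSC, 51.7 in SPG, 751 in early-SPC, 191 in late-SPC and 33.1 in SPT, a 3.93-fold difference (3.06 to 5.08) between early-SPC and late-SPC. In deep cells *SPATA22* was at 81.6 CPM in SPG-like, 279 in early-SPC-like, 93.7 in late-SPC-like and 22.2 in SPT-like cells. *TEX14*, which holds open the bridges between sister germ cells, was spread over more stages. It stood at 78.4, 80.8, 133, 109 and 25.8 CPM from typed SSC to SPT, and early-SPC and late-SPC did not differ beyond counting error (1.22-fold, 0.783 to 1.89). In deep cells *TEX14* was at 144 CPM in SPG-like, 172 in early-SPC-like, 250 in late-SPC-like and 50.05 in SPT-like cells, with late-SPC-like 1.45-fold (1.27 to 1.66) above early-SPC-like cells.

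Of the 3 members of the acrosome and sperm head, *SPATA16* came first and the other two followed in spermatids. *SPATA16* encodes an acrosome protein whose loss gives round-headed sperm. In deep cells it was at 5.67 CPM in SPG-like, 69.2 in early-SPC-like, 1049 in late-SPC-like and 340 in SPT-like cells, 3.08-fold (2.87 to 3.31) higher in late-SPC-like than in SPT-like cells. *SPATA46*, needed for the shape of the sperm head, was at 1.13, 0, 94.6 and 805 CPM in the same order, and at 63.0 and 571 CPM in typed late-SPC and SPT. *TEX38*, a palmitoylation partner that shapes the head, was at 14.4 CPM in deep late-SPC-like and 187 in SPT-like cells, a 13.0-fold difference (10.2 to 16.7).

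All 6 members of the tail, neck and mitochondrial sheath were highest in deep SPT-like cells. *SPATA6*, needed for the piece that joins head and tail, was at 46.5 CPM in SPG-like, 97.3 in early-SPC-like, 485 in late-SPC-like and 2750 in SPT-like cells, and its typed levels ran from 65.3 CPM in SSC to 1469 in SPT. It was thus detected at every stage, and its last step was 5.68-fold (5.43 to 5.94) in deep and 3.84-fold (3.22 to 4.61) in typed cells. The deep SPG-like level of *SPATA6* was near the 45.3 CPM of the pooled somatic classes and below the 60.6 CPM of EC-like cells. *SPATA19*, a protein of the mitochondrial sheath, was at 1.13, 2.61, 7.19 and 1177 CPM from deep SPG-like to SPT-like cells. Its step into SPT-like cells was 164-fold (120 to 229), and none of the earlier stages exceeded the 7.55 CPM of T/NK-like cells.

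The other 4 genes of that group had steps between these extremes. *TEX33*, a protein of ciliary microtubules, went from 96.7 CPM in deep late-SPC-like to 1906 in SPT-like cells (19.7-fold, 18.0 to 21.6). *TEX43* and *TEX37*, which line the microtubules of the sperm tail, were 19.3-fold (16.9 to 22.0) and 31.0-fold (23.3 to 42.0) higher in SPT-like than in late-SPC-like cells, at 866 and 284 CPM. *SPATA18*, which acts in the quality control of mitochondria, was at 4.32 CPM in late-SPC-like and 77.6 in SPT-like cells.

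The 7 members that are also used outside the testis were highest mostly in spermatocytes, 2 in early-SPC-like, 4 in late-SPC-like and 1 in SPT-like cells. *TEX264*, a receptor for the turnover of endoplasmic reticulum, was at 78.2 CPM in deep SPG-like, 142 in early-SPC-like, 374 in late-SPC-like and 67.6 in SPT-like cells. *TEX2*, a lipid-binding protein of the endoplasmic reticulum, was at 36.3, 79.0, 161 and 100 CPM in the same order. *SPATA5*, an ATPase of ribosome maturation, was at 82.7, 113, 41.7 and 7.26 CPM. The deep spermatid level of *SPATA5*, on 19 UMIs, was below the 10.4 CPM of T/NK-like cells. Its level in typed SPT, 22.1 CPM on 6 UMIs, was above it. In deep spermatids *TEX264* and *TEX2* stayed above their T/NK-like levels of 39.5 and 12.1 CPM. Other somatic classes held more of both. *TEX264* was at 76.4 CPM in macrophage-like cells (60 UMIs), near its levels of 67.6 CPM in deep and 77.3 CPM in typed spermatids. *TEX2* was at 48.1 CPM in MC-like cells, below its spermatid but above its SPG-like level.

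*TEX30* differed little between spermatocyte stages. It was at 19.6 CPM in typed SSC, 80.8 in SPG, 548 in early-SPC, 546 in late-SPC and 147 in SPT, and the fold of 1.00 between early-SPC and late-SPC had an interval of 0.818 to 1.23. In deep cells early-SPC-like cells were above late-SPC-like cells, 490 against 361 CPM (1.36-fold, 1.25 to 1.48). *SPATA20*, with a thioredoxin-like domain, was the exception of the group with its maximum in spermatids, at 10.8, 5.22, 27.7 and 480 CPM from deep SPG-like to SPT-like cells. *SPATA2*, a partner of the deubiquitinase CYLD, did not exceed 4.85 CPM in any deep stage, and its highest and next stages did not differ beyond counting error (1.24-fold, 0.501 to 3.67).

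Of the 24 members to which no role is given here, 23 had 20 UMIs in deep cells, and 20 of these were highest in SPT-like cells. *TEX29* was at 9.91, 3.92, 97.1 and 2423 CPM and *TEX35* at 1.13, 1.31, 3.78 and 969 CPM from deep SPG-like to SPT-like cells. The step into SPT-like cells was 24.95-fold (22.8 to 27.3) for *TEX29* and 257-fold (168 to 415) for *TEX35*. *SPATA24* started earlier, at 340 CPM in late-SPC-like and 1637 in SPT-like cells (4.81-fold, 4.56 to 5.08). *SPATA17* was highest in late-SPC-like cells at 280 CPM, 1.38-fold (1.25 to 1.52) above SPT-like cells. *SPATA4*, at 2.83, 32.7, 489 and 522 CPM, did not differ beyond counting error between its last stages (1.07-fold, 0.999 to 1.14), and neither did *TEX9*, a protein of centriolar satellites, between late-SPC-like (73.2 CPM) and early-SPC-like cells (58.1 CPM; 1.26-fold, 0.999 to 1.60).

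Within a stage the deep clusters differed in which members they held. Clusters are called by the first of their leading genes that has a symbol, and members named in the comparisons of clusters beyond those fixed for naming were chosen after their values were seen. Among the 3 early-SPC-like clusters, *TEX11* was at 685 CPM in the cluster led by *H1-1* (16 cells), 780 in that led by *CTCFL* (40 cells) and 63.8 in that led by *SLC6A9* (17 cells). *SPATA22* was at 99.4, 235 and 490 CPM and *TEX30* at 250, 308 and 968 CPM in the same order. Thus the cluster lowest in *TEX11* was highest in both other genes. *SPATA16* was at 5.68, 4.14 and 222 CPM and *SPATA4* at 2.84, 1.38 and 106 CPM in these clusters, so both genes were far higher in the *SLC6A9* than in the other early-SPC-like clusters. In SPG-like cells *TEX11* was at 558 CPM in the *CRABP1* cluster (65 cells) and 232 in the *PIWIL4* cluster (83 cells), whereas *TEX14* was at 139 and 147 CPM.

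**Figure D3:**
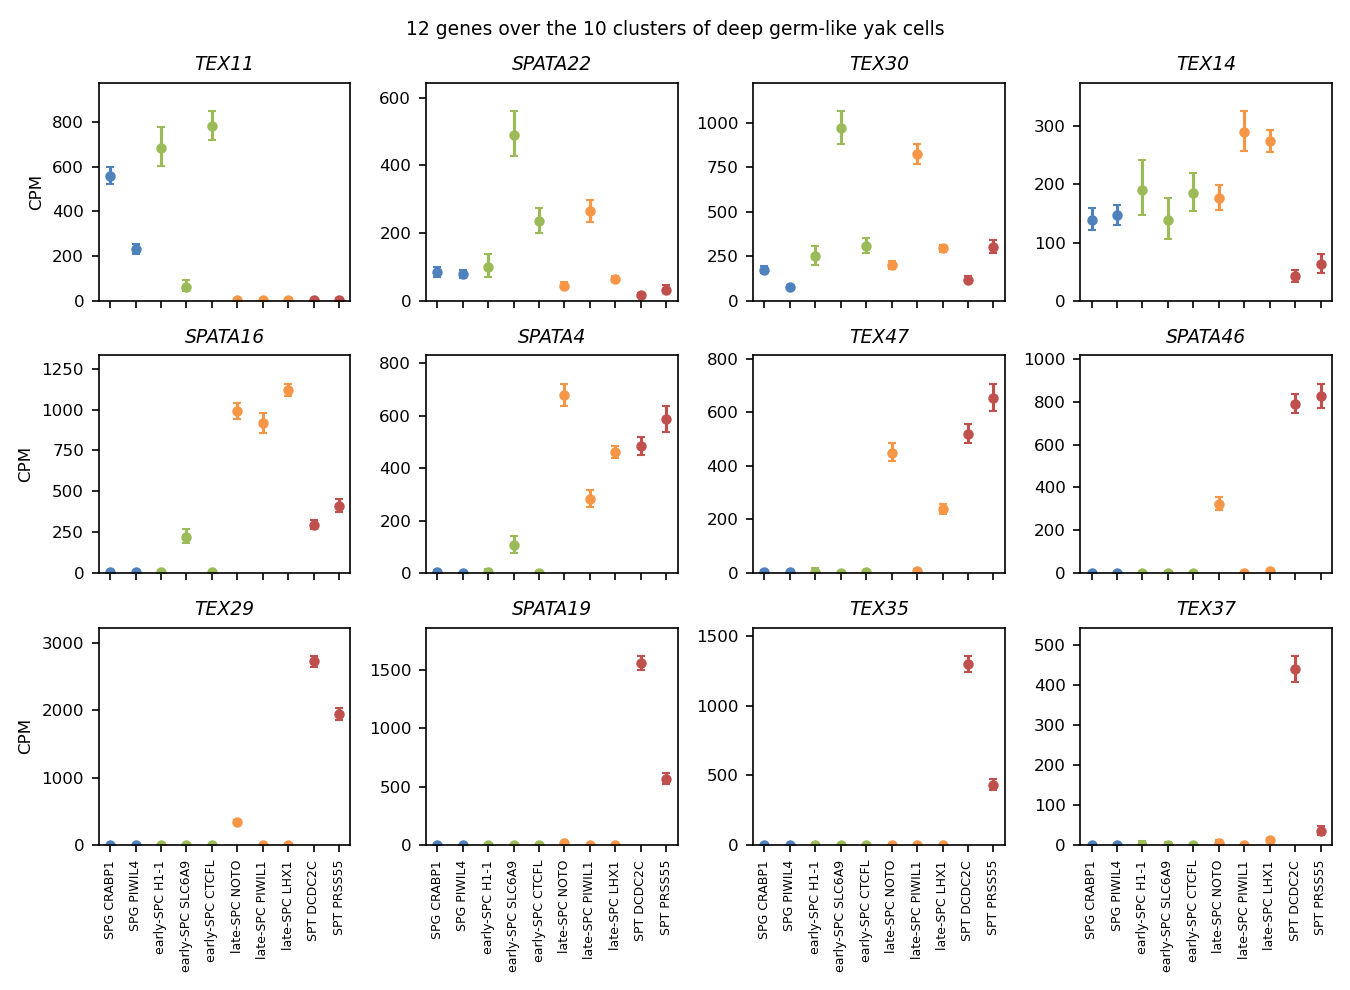
CPM of 12 genes in the 10 clusters of deep germ-like yak cells, named by stage and first leading gene with a symbol, with exact 95% Poisson intervals (counting error only) and colours by stage (blue SPG-like, green early-SPC-like, orange late-SPC-like, red SPT-like). *TEX11* falls in the *SLC6A9* cluster, where *SPATA22* and *TEX30* are high. *SPATA46* and *TEX29* are also above 300 CPM in the late *NOTO* cluster. *SPATA19*, *TEX35* and *TEX37* are at 35.0 CPM or more only in spermatids.

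The spermatid members differed in their level in the late-SPC-like clusters, which were not ordered in time. Of the 3 late-SPC-like clusters, the *NOTO* cluster (44 cells) also had 4 enriched SPT-like markers and held 0.704% of its UMIs in members, against 0.430% in the *LHX1* cluster (55 cells) and 0.386% in the *PIWIL1* cluster (16 cells). At Leiden resolution 2 the cluster led by *NOTO* held 25 cells, with 6 SPT-like and 5 late-SPC-like markers enriched. Whether levels in the *NOTO* cluster average cells of both stages was not tested. Between the *NOTO* and *LHX1* clusters 35 members had 20 UMIs, of which 16 were more than 2-fold higher, meaning a log2 ratio past 1 with 1 CPM added to each side (18.5% of 8145 genes tested) and 2, *SPATA3* and *SPATA5*, more than 2-fold lower (10.7%). The median log2 ratio was 0.81, against -0.01 for all genes tested. *TEX29* was at 350 CPM in the *NOTO*, 0.656 in the *LHX1* and 2.04 in the *PIWIL1* cluster. *TEX33* was at 331, 8.52 and 6.12 CPM and *SPATA46* at 325, 9.50 and 0 CPM, so that all 3 genes were below 10 CPM in the other 2 late-SPC-like clusters.

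Of the 29 members highest in deep SPT-like cells, 19 were at 10% or more of their SPT-like level in the *NOTO* cluster (73.3% of all 3043 genes highest in deep SPT-like cells) and 7 at 2% or less (12.4%). Those at 10% or more included *SPATA4* at 130% of its SPT-like level, *SPATA6L* at 98.1%, *SPATA48* at 88.6%, *TEX47* at 78.7%, *SPATA46* at 40.3% and *SPATA6* at 34.1%. The 7 at 2% or less were *SPATA3*, *SPATA21*, *SPATA25*, *TEX36* and *TEX45*, each with 0 UMIs in the *NOTO* cluster, *TEX35* with 4 UMIs (0.270%) and *SPATA19* with 24 UMIs (1.33%). A count of 0 there allowed up to 1.96 CPM. *TEX29*, at 14.5%, and *TEX33*, at 17.3%, were also detected in that cluster, although *TEX35* and *SPATA19* were not above 15.7 CPM.

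The pair of SPT-like clusters was also unequal. The *DCDC2C* cluster (45 cells) held 2.08% of its UMIs in members and the *PRSS55* cluster (26 cells) 1.53%. Among 39 members with 20 UMIs, 7 were more than 2-fold higher in the *DCDC2C* cluster (15.1% of 7130 genes tested) and 5 more than 2-fold lower (21.7%), with 27 between and a median log2 ratio of 0.01 (-0.33 over all genes). *TEX37* was at 438 CPM in the *DCDC2C* and 35.0 in the *PRSS55* cluster, a 12.5-fold difference (8.91 to 18.1). *TEX46*, *TEX45*, *SPATA21*, *TEX35*, *SPATA19* and *SPATA3* were 7.41-, 3.99-, 3.55-, 2.99-, 2.75- and 2.45-fold higher. The members lower in the *DCDC2C* cluster were *TEX264*, at 21.6 against 142 CPM (6.57-fold lower, 4.51 to 9.80), *TEX9*, *SPATA17*, *TEX30* and *SPATA48*. *SPATA46* (792 and 826 CPM) and *TEX43* (852 and 888 CPM) were close to equal. Of the 7 members higher in the *DCDC2C* cluster and the 7 at 2% or less in the *NOTO* cluster, 5 were on both lists, namely *SPATA3*, *SPATA19*, *SPATA21*, *TEX35* and *TEX45*. Both lists use the counts of the *DCDC2C* cluster, and of all 339 such genes at 2% or less 74.6% were more than 2-fold higher in that cluster, so the overlap was near that of other genes.

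Deep and typed cells also differed in the level of many members. Over all stages, 42 members had 20 UMIs, and 23 were more than 2-fold higher in deep than in typed cells (14.8% of 13205 genes tested) and 0 more than 2-fold lower (11.5%). The mix of stages differed between these sets, since SSC and SPG made up 84 and 486 of the 1127 typed cells. Against typed early-SPC, late-SPC and SPT only, 2 members, *SPATA9* and *TEX37*, were higher (15.0% of 12938 genes tested) and *SPATA22* was lower (8.13%). The deep side of that comparison still held its 148 SPG-like cells, so its stages were not matched either. Between deep SPT-like and typed SPT cells, 11 of 40 members were more than 2-fold higher (15.9% of 7628 genes tested) and 1 was lower (16.7%), with a median log2 ratio of 0.88 against 0.25 for all genes. *TEX29* was at 2423 CPM in deep and 1090 in typed spermatids (2.22-fold, 1.98 to 2.51), and *SPATA9* at 282 and 77.3 CPM (3.64-fold, 2.36 to 5.92). *SPATA16* (340 and 313 CPM) and *TEX264* (67.6 and 77.3 CPM) did not differ beyond counting error.

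*SPATA5* was the member that was lower, at 7.26 CPM in deep and 22.1 in typed spermatids, but on 19 and 6 UMIs the interval of this 3.04-fold difference, 0.995 to 7.93, included 1. *TEX11*, with 19 UMIs in both sets together and so under the limit, was at 2.67 and 44.2 CPM. The summed markers of other cells also differed between these sets, and not all in 1 direction. The MC list summed to 254 CPM in deep SPT-like and 2581 in typed SPT cells, and the EC list to 60.7 and 420 CPM. The 9 macrophage genes went the other way, at 1643 and 913 CPM, although 3 of them had 0 UMIs in deep SPT-like cells. Of these 9 genes, 2 were enriched in the *DCDC2C* and 1 in the *PRSS55* cluster, and whether their sum is RNA of macrophages was not tested. The 16 SPT-like markers summed to 12500 and 6531 CPM. Their part in the differences was not tested.

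**Figure D4:**
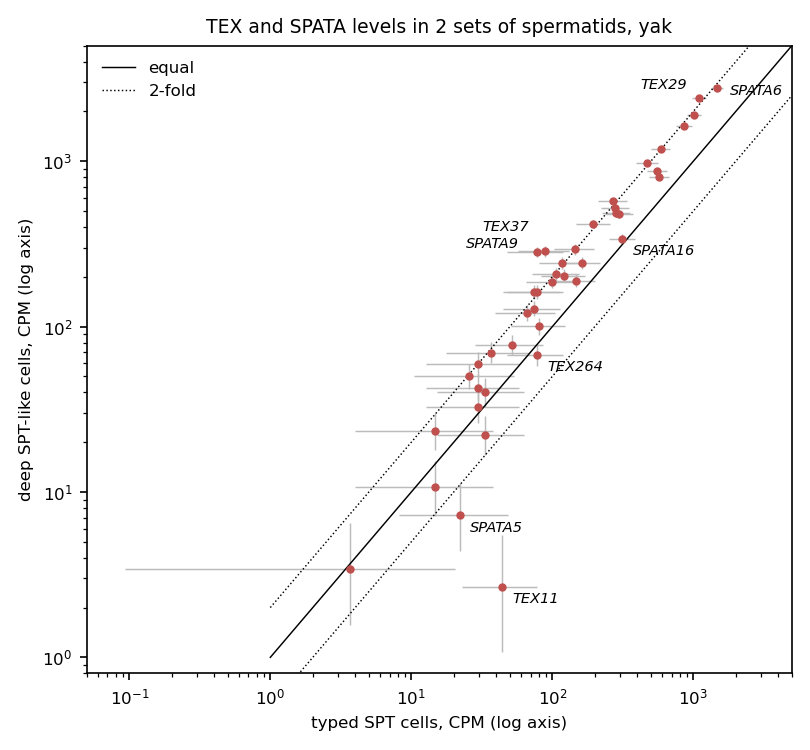
CPM of 42 genes in typed SPT cells (x) and deep SPT-like cells (y) of the yak, both on log axes, with exact 95% Poisson intervals and lines at equal level and at 2-fold; *SPATA2L*, at 0 in both, is left out. Most points lie between the equal line and 2-fold above it, and *TEX11* and *SPATA5* lie more than 2-fold below it.

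Single deep spermatids held UMIs of many members. A deep SPT-like cell had a UMI of a median of 35 of the 43 genes (quartiles 33 to 36), a late-SPC-like cell of 19, an early-SPC-like cell of 10 and an SPG-like cell of 9, at medians of 34178, 37092, 19396 and 20990 UMIs. The 341 deep cells of named somatic classes had a median of 4 members at a median of 21863 UMIs. Typed SPT cells had a median of 5 members at a median of 906 UMIs. After each cell was thinned to 500 UMIs, which left out no cell, the medians were 7 members in deep SPT-like, 3 in typed SPT, 2 in deep late-SPC-like and 0 in T/NK-like cells, where 85.4% of cells had none. *TEX29* was then found in 71.8% of deep SPT-like (59.9% to 81.9%), 34.4% of typed SPT (28.2% to 41.0%) and 0.704% of T/NK-like cells, and without thinning in 100%, 54.9% and 2.47%. *TEX11* was found in 31.5% of thinned deep early-SPC-like, 37.5% of typed early-SPC and 0.135% of T/NK-like cells, and in 83.6%, 68.1% and 0.623% without thinning. Both genes were well above the share in lymphocytes in their own stage.

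Somatic classes held little of the members. Of the 39 members with 20 UMIs, 39 were more than 2-fold higher in typed germ cells than in the pooled somatic classes (30.3% of 14164 genes tested) and 0 more than 2-fold lower (16.3%), and the median log2 ratio was 3.54 against 0.23 for all genes. *TEX11* stood at 280 and 4.75 CPM, a 59.01-fold difference (48.8 to 71.7). The smallest folds belonged to members also used outside the testis. *TEX264* was at 107 CPM in germ cells and 46.4 in somatic classes (2.30-fold, 1.97 to 2.68), and *SPATA5L1*, a partner of *SPATA5*, was 2.42-fold (1.67 to 3.41), *SPATA20* 2.78-fold and *TEX2* 3.03-fold higher. *SPATA2L*, at 0.554 and 0.615 CPM, *SPATA2* and *TEX46* were among the 4 members under the limit.

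Levels of the spermatid members in somatic cells were low in every class. The 29 genes highest in deep SPT-like cells had a median of 0.232% of their SPT-like level in pericyte-like and 0.766% in T/NK-like cells, and summed to between 109 CPM in MC-like and 167 in macrophage-like cells. Free RNA in the droplets was not measured, and its part in these levels was not tested. The members used outside the testis were at 2.27% to 10.6% of their highest deep stage in T/NK-like cells, the 3 genes of meiosis and early germ cells at 0.567% to 1.93%. *TEX2* was at 48.1 CPM in MC-like and 12.1 in T/NK-like cells (3.97-fold, 3.08 to 5.12), *SPATA20* at 33.0 CPM in stromal-like and 10.9 in T/NK-like cells (3.03-fold, 2.29 to 4.04), and *TEX30* at 39.6 CPM in T/NK-like and 11.7 in MC-like cells (3.39-fold, 2.47 to 4.75). These 3 genes thus differed between somatic classes beyond counting error.

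Most members were lower in the cattle-yak than in the yak library. Of the 43 genes, 35 had a UMI in the cattle-yak, and *SPATA46*, *TEX26*, *TEX36*, *TEX37*, *TEX43*, *TEX46*, *TEX50* and *TEX52* had 0 UMIs, which allows up to 0.0685 CPM. Over all deposited cells, 0 members were more than 2-fold higher than in the yak (1.89% of 17548 genes tested) and 34 more than 2-fold lower (14.1%), with a median log2 ratio of -2.998 against -0.15 for all genes. *TEX33* had 4 UMIs in the cattle-yak against 7047 in the yak, a level 1268-fold lower (495 to 4655). *TEX29* had 24 and 8548 UMIs (256-fold lower, 172 to 400.3) and *SPATA19* 6 and 3988 UMIs (478-fold lower, 220 to 1304). *SPATA46* was at least 787-fold lower and *TEX43* at least 785-fold lower, against a floor of 3 UMIs over the library, which is a one-sided limit, and their exact intervals start at 639-fold and 638-fold. Other genes that were highest in yak spermatids were well detected, with 1690 UMIs of *SPATA6* (6.08-fold lower, 5.78 to 6.40) and 1071 of *SPATA20* (1.94-fold lower, 1.80 to 2.08). Cattle-yak germ-like cells held 242 UMIs of *SPATA6* and 24 of *SPATA20*, against 609 and 436 in named somatic classes. As levels these were 60.3 against 34.1 CPM for *SPATA6* and 5.98 against 24.4 CPM for *SPATA20*.

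**Figure D5:**
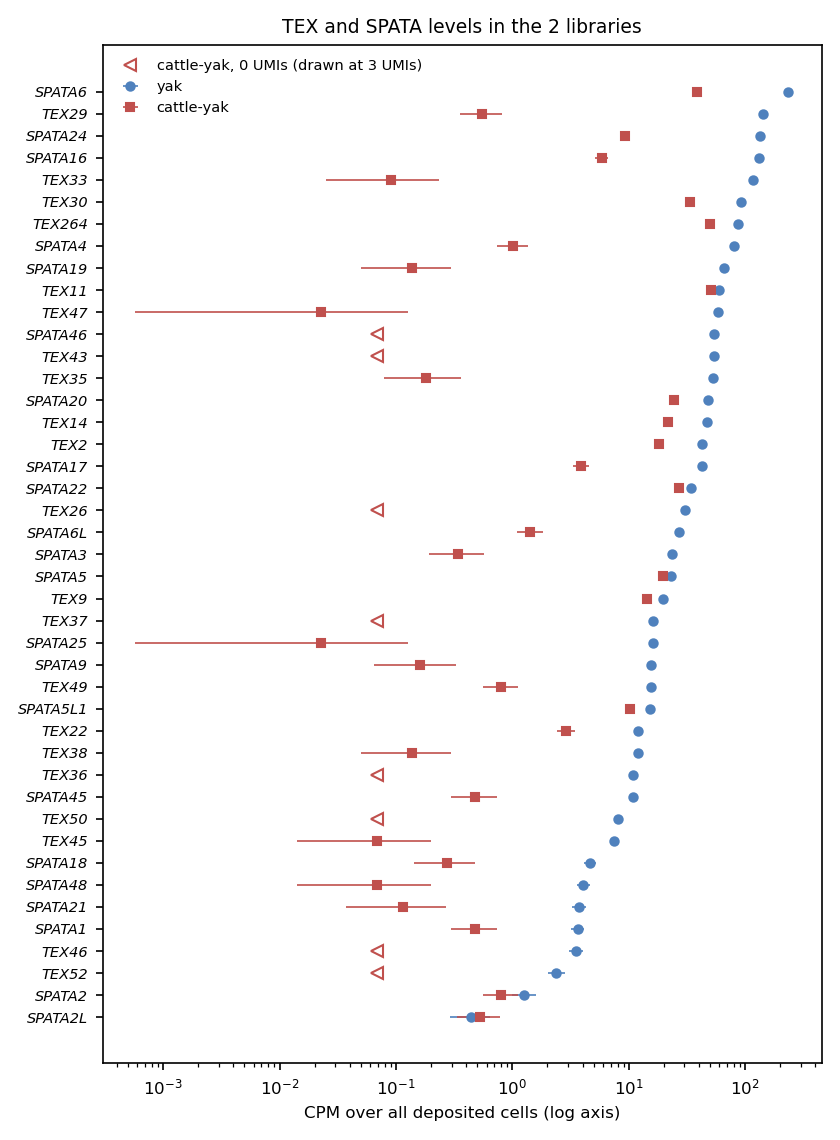
CPM of the 43 genes over all deposited cells of the yak (blue) and the cattle-yak (red) on a log axis, with exact 95% Poisson intervals, ordered by the yak level; open triangles mark the 8 genes with 0 cattle-yak UMIs, drawn at the level of 3 UMIs. The libraries lie close for *TEX11*, *SPATA5*, *SPATA22*, *TEX9* and *SPATA2L* and far apart for *TEX33*, *TEX29*, *SPATA46* and *TEX43*.

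The members closest between the libraries were *TEX11*, *SPATA5* and *SPATA2L*. *TEX11* was at 50.4 CPM in the cattle-yak and 59.2 in the yak library (1.17-fold lower, 1.11 to 1.24), *SPATA5* at 19.6 and 23.1 CPM (1.18-fold lower, 1.09 to 1.29) and *SPATA2L* at 0.525 and 0.444 CPM (1.18-fold, 0.648 to 2.14). The other members highest in deep spermatocytes ranged widely, with *SPATA22* at 26.9 and 34.2 CPM (1.27-fold lower), *TEX14* 2.16-fold, *TEX30* 2.75-fold, *SPATA17* 10.9-fold and *SPATA16* 22.3-fold lower in the cattle-yak. The germ cells differed in stage as well. No deep cattle-yak cluster was SPT-like, and the deep germ-like clusters were 77 SPG-like, 41 early-SPC-like and 10 late-SPC-like cells, beside an unnamed cluster of 90 cells with SPG-like markers. The 16 SPT-like markers summed to 771 CPM over the yak and 15.7 CPM over the cattle-yak library. Fewer cells of a stage and less RNA per cell cannot be told apart in values over a whole library.

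In deep SPG-like cells 17 members had 20 UMIs, of which *SPATA16* was more than 2-fold higher in the cattle-yak (2.78% of 10204 genes tested) and *SPATA24*, *SPATA6L*, *TEX29* and *TEX33* more than 2-fold lower (13.4%), with a median log2 ratio of -0.51 against -0.25 for all genes. *SPATA16* was at 16.6 CPM in the cattle-yak and 5.67 in the yak (2.93-fold, 1.67 to 5.31). *TEX11* was at 241 and 375 CPM (1.56-fold lower, 1.41 to 1.72) and *SPATA22* at 85.2 and 81.6 CPM. The yak cells were the *CRABP1* (65 cells) and *PIWIL4* (83 cells) clusters, between which *TEX11* differed. The cattle-yak cells were clusters led by *PIK3CD* (50 cells) and *CRABP1* (27 cells), without the unnamed cluster of 90 cells with SPG-like markers. The part of this mix of clusters in the folds was not tested. The fold of *SPATA6L* rests on 4 and 17 UMIs, and its interval of 0.921 to 11.5 included 1. The 4 lower members are genes that were highest in yak spermatids. Yak SPG-like cells held *TEX33* at 7.08 and *TEX29* at 9.91 CPM, below the 16.8 and 11.4 CPM of yak T/NK-like cells. They held *SPATA24* at 18.7 and *SPATA6L* at 4.82 CPM, above the 16.8 and 3.96 CPM of yak T/NK-like cells. Both levels were below those of the highest yak somatic class, 21.1 CPM in lymphatic EC-like and 6.11 CPM in MC-like cells. The part of free RNA in these levels was not tested.

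The 41 early-SPC-like and 10 late-SPC-like cattle-yak cells were below the minimum of 50 cells for comparing a class between libraries, and their values are given side by side with no fold or call. The clusters within the yak, some of which are smaller, were held to no such minimum. In early-SPC-like cells *TEX11* was at 575 CPM in the cattle-yak and 545 in the yak, *TEX14* at 152 and 172 CPM and *SPATA5* at 102 and 113 CPM. *TEX30* was at 233 and 490 CPM and *SPATA16* at 11.0 and 69.2 CPM in the same cells. Among the early-SPC-like clusters of the yak *TEX30* and *SPATA16* were highest in the *SLC6A9* cluster, and the cattle-yak had 1 early-SPC-like cluster, led by *CTCFL*. In the 10 late-SPC-like cells of the cattle-yak *SPATA22* was at 647 CPM, *TEX30* at 683, *SPATA16* at 330 and *SPATA4* at 135. Yak late-SPC-like cells held them at 93.7, 361, 1049 and 489 CPM. *TEX11* was at 47.7 CPM, against 2.61 and 2.29 CPM in the yak *NOTO* and *LHX1* clusters. These yak clusters had 2 and 7 early-SPC-like markers enriched, the yak *PIWIL1* cluster (16 cells) 11 and the cattle-yak cluster 13. Levels are not set beside those of the *PIWIL1* cluster alone. *TEX29*, *TEX33* and *SPATA46* had 0 UMIs in the cattle-yak cells, which allows up to 11.9 CPM. The early-SPC-like and late-SPC-like marker lists summed to 5317 and 4467 CPM in these cattle-yak cells. In yak late-SPC-like cells they summed to 2271 and 8109 CPM, so the groups of this name differed in their markers.

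Between somatic classes the members differed too, at low levels. In the pooled somatic cells 35 members had 20 UMIs, 0 were more than 2-fold higher in the cattle-yak (1.9% of 14763 genes tested) and 16 more than 2-fold lower (5.57%), with a median log2 ratio of -0.92 against -0.13. With 5 CPM added to each side in place of 1, 4 members were lower, and no share over all genes is given for that setting. *TEX33* had 0 UMIs in cattle-yak and 297 in yak somatic cells, at least 60.4-fold lower against a floor of 3 UMIs per group (exact interval from 48.8-fold), and *TEX29* had 3 and 214 UMIs (43.5-fold lower, 14.7 to 213). The SPT-like marker list moved with these values, at 3.42 CPM in cattle-yak and 63.4 in yak somatic cells, and its part in the result was not tested. Members used outside the testis lay closer, with *SPATA20* at 24.4 CPM in the cattle-yak and 22.3 in the yak (1.10-fold, 0.969 to 1.24), *TEX264* at 40.5 and 46.4 CPM and *SPATA5* at 9.19 and 10.3 CPM. The mix of classes differed, with T/NK-like cells 1264 of 4867 cattle-yak and 3692 of 7616 yak somatic cells. Within classes *SPATA20* went both ways. It was at 38.3 against 28.9 CPM in EC-like and 16.2 (8 UMIs) against 30.5 CPM in pericyte-like cells of the cattle-yak and the yak.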

How the data were processed

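Testis cells of 1 yak and 1 cattle-yak were measured as 1 droplet library each. The authors mapped reads to BosGru3.0 with Cell Ranger and deposited raw counts of UMIs per gene and called barcode, not normalized. Its version is 5.0.0 per the file headers and 2.1.1 per the submitters' processing notes. Typed cells were the 1127 barcodes that the study's germ cell table assigns to a type. The other cells were kept within 2 SD of the mean genes and UMIs and below 30% mitochondrial UMIs. Cells above 2 SD formed the deep tier, clustered apart. Clustering used log counts per 10000, 2000 variable genes without any TEX or SPATA gene, 30 components, 15 neighbours and Leiden at resolution 1 (scanpy 1.11.5, igraph 0.11.9, Python 3.11.15, numpy 2.4.6, scipy 1.17.1, pandas 2.3.3, scikit-learn 1.9.0, seed 0). A cluster was named by the marker list with the largest enriched share among those with at least 3 enriched genes (log2 ratio of 1, a UMI in 10% of cells), and stayed unnamed where another list had more genes among its 10 leading genes or where it was shallow and led by none of its own markers. Clusters with 3 Sertoli markers, 1 per library, stayed unnamed by this rule. No doublet caller was run.

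Summed UMIs were scaled to CPM with exact Poisson intervals at 95%, ratios had exact conditional intervals and shares of cells exact Clopper-Pearson intervals, and PCR and capture add error that these do not cover. Peaks and ratios were counted over genes with at least 20 UMIs, and a ratio was called past 1 or -1 on the log2 scale with 1 CPM added. The ratio and peak functions were tested on simulated data. The 43 members, the lists and the roles were chosen with earlier results of these data known. Named members were those the study names, up to 6 with the highest CPM per stage, the 8 with the lowest ratio of typed germ cells to somatic classes, and the 3 largest and smallest ratios between libraries. Others were chosen after their values were seen. Every column was mapped to a sample. Alternatives changed the UMI limit, CPM denominator, cell weights, added CPM, Leiden resolution, mitochondrial limit and typed cells. Figures were drawn with matplotlib 3.10.9.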

Additional observations from a re-analysis of the deposited data

Results flagged for a closer look

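*SPATA20* was on opposite sides of the somatic classes in the germ-like cells of the libraries. Its log2 ratio of germ-like to somatic cells was 2.20 in the yak, at 106 CPM against 22.3 CPM, and -1.87 in the cattle-yak, at 5.98 CPM against 24.4 CPM. The cattle-yak values rest on 24 UMIs in germ-like and 436 UMIs in somatic cells. With 1 library each, the difference was not tested. In the yak the gene was highest in deep SPT-like cells, at 480 CPM, and was at 10.8 CPM in deep SPG-like cells, and the cattle-yak had no SPT-like cluster.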

How the results depend on the processing

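No paired analysis was possible because each group had 1 library and no result comes from a test. For the same reason no library could be left out. The number of members highest in typed SPT was 23, and 14 with a limit of 50 UMIs, where fewer genes were counted. Members more than 2-fold higher in deep than in typed cells numbered 23, and 13 without mitochondrial and rRNA features in the denominator, 13 with each cell weighted equally and 2 against typed early-SPC, late-SPC and SPT cells only. Members lower there numbered 0, and 1 in the first and 1 in the last of these settings. The last setting left the SPG-like cells on the deep side, so it did not match the stages. Members lower in cattle-yak than in yak somatic classes numbered 16, and 4 with 5 CPM added to each side, which shrinks ratios of low levels. Apart from the comparison with typed early-SPC, late-SPC and SPT cells, no share over all genes is given for these alternatives. Their counts describe the members only. The other counts stayed within 1.5 times of the values given, including those of the deep stages at Leiden resolution 2 and with equal cell weights, alternatives chosen after seeing the data. No ratio reversed its direction as a call. Counted once per gene and alternative, 48 ratios of deep to typed cells lost a call, 5 gained one and 199 stayed the same. Between libraries in somatic classes these numbers were 15, 7 and 153, and for germ cells against somatic classes 3, 0 and 225. Depth limited the typed cells, where 8 members had under 20 UMIs, and the 10 late-SPC-like cells of the cattle-yak.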
